A study of Drosophila erecta with 23 samples.

Results

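The last hours of an embryonic series of *Drosophila erecta*, 20-23 h after egg laying, were set against the 3 hours before them, 17-20 h. RAMPAGE, which sequences 5′-complete cDNAs and so measures how many transcripts start at each promoter, was run on whole dechorionated embryos of the reference genome strain, wild type and untreated, from population cages. The comparison used 6 of the 23 hourly libraries of the series. The 20-23 h window comprised the libraries of 20-21, 21-22 and 22-23 h, and the 17-20 h window those of 17-18, 18-19 and 19-20 h. The 3 libraries of 14-17 h are given beside them as an earlier point. Both windows share the strain and handling and differ in age alone as far as the labels say. The labels give hours and no developmental stage or score of hatching, so no stage is named below. Each hour is 1 library of many pooled embryos, without a replicate. The hours of a window therefore stand in for replicates although they differ in age and follow one another, and every p-value below sets the difference between windows, or a slope over the hours, against the scatter between hours.

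In the final part of fly embryogenesis the organs of the larva are complete and the epidermis finishes the cuticle that encloses it. The tracheae fill with air, the muscles and nervous system begin to move the larva, and the gut is made ready for feeding. Many genes for abundant products of differentiated tissues, such as those for cuticle proteins, lie in clusters of related copies. In whole embryos, a fall in a transcript's level and a fall in the number of cells that make it cannot be told apart.

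Transcription start sites that lie close together were grouped by the study into transcription start site clusters (TSCs), each taken as 1 promoter. Levels are RPM, reads per 1000000 reads of all TSCs in that library. The 6 libraries held from 1348239 reads (22-23 h) to 9148162 reads (18-19 h) in TSCs. A TSC without a read could thus still have had up to 2.23 RPM at 22-23 h and 0.328 RPM at 18-19 h, the value of 3 reads, a limit that covers counting error only. After positions listed for several genes were counted once, 8338 TSCs and 6229 genes had at least 10 reads in at least 3 of the 6 libraries and were tested. Another 14125 TSCs and 2719 genes stayed below that minimum. The identifiers of the tables were not paired with gene symbols in the tables used here, so promoters are named by their position on the scaffolds of genome release 1.3 (1-based) and no function is given for them.

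A small number of promoters supplied a large part of the RNA at this age. The 40 TSCs with the highest mean over the 6 libraries took 47.5%, 51.2% and 47.4% of the reads at 20-21, 21-22 and 22-23 h, against 37.6%, 42.4% and 53.2% at 17-18, 18-19 and 19-20 h. At 14-15, 15-16 and 16-17 h the same TSCs had 20.7%, 25.8% and 25.7%. Of these 40, 21 had a mean over 17-20 h more than 5 times that over 14-17 h. As the 40 were chosen by their level over 17-23 h, their lower levels at 14-17 h are in part set by the choice. Counted without that choice, 50% of all reads were held by 48, 34 and 42 TSCs in the hours of 20-23 h, against 103, 66 and 28 in those of 17-20 h and 242, 193 and 219 in those of 14-17 h. By that count, reads were more concentrated already at 17-18 h than at 16-17 h and more so again at 19-20 h, the most concentrated of these 9 libraries. Among the 40, the windows did not overlap for 3 that were higher at 20-23 h and 1 that was lower. Between the windows, the mean share of the 40 highest TSCs was 48.7% ± 2.16 at 20-23 h and 44.4% ± 7.97 at 17-20 h (SD, n = 3 each), a difference smaller than the spread of the hours of 17-20 h (exact permutation test, two-sided, p = 0.5, adjusted p = 0.6 over 5 measures of composition, none of which separated the windows; the smallest p that 3 against 3 allows is 0.1).

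**Figure D1:**
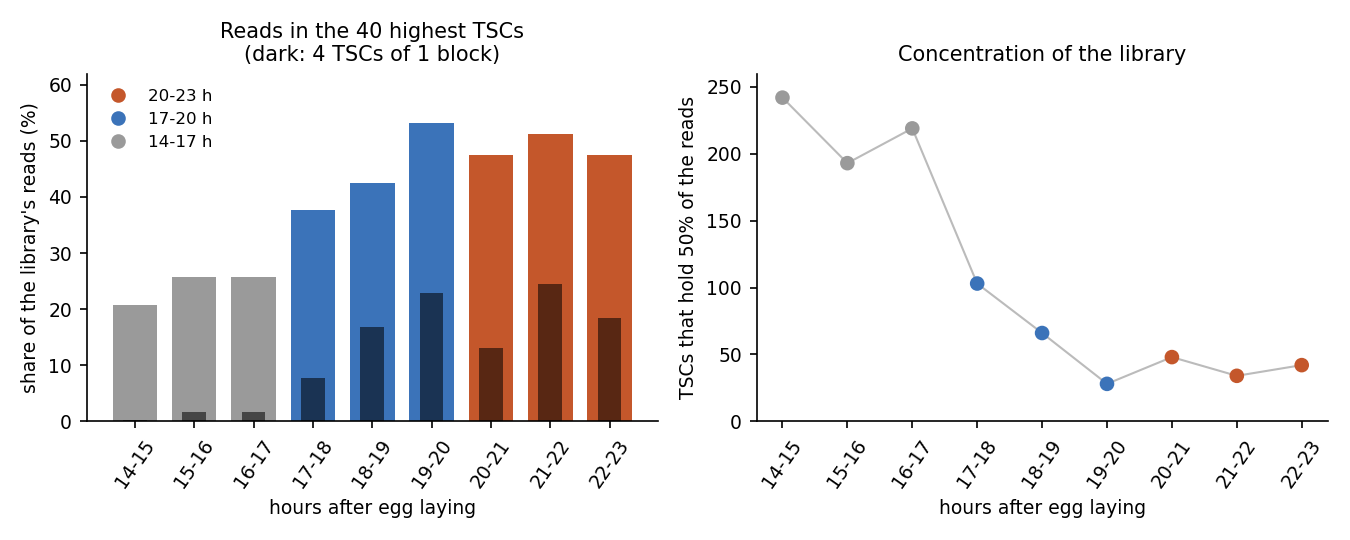
Left, share of each library's reads (%) in the 40 highest TSCs (wide bars, colored by window) and in a block of 4 of them on scaffold 4784 (narrow dark bars), by hour after egg laying; right, the number of TSCs that together hold 50% of the reads. The share lies between 47.4% and 51.2% in the hours of 20-23 h, against 37.6% to 53.2% in those of 17-20 h, and the number of TSCs is lowest, 28, at 19-20 h.

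The single largest contribution came from 4 TSCs of 4 different genes on the minus strand of scaffold 4784, within 8822442-8837805. Their summed share was 13.1%, 24.4% and 18.5% of all reads at 20-21, 21-22 and 22-23 h, against 7.77%, 16.9% and 23.0% at 17-18, 18-19 and 19-20 h, and at most 1.61% in the hours of 14-17 h. These 4 were taken from the 40 highest TSCs, so their lower share at 14-17 h is also in part set by the choice. The members did not move together from hour to hour. The TSC at 8822442-8822606 had 11209, 54774 and 120542 RPM at 20-21, 21-22 and 22-23 h, against 23346, 40650 and 78874 RPM at 17-18, 18-19 and 19-20 h. Its neighbor at 8826975-8827189 had 19907, 51271 and 4340 RPM over 20-23 h, against 9969, 44860 and 30164 RPM over 17-20 h. Both windows overlap for each of the 4 TSCs. For that at 8837665-8837805 they do so only through the 14670 RPM at 19-20 h, against 15074, 16415 and 11344 RPM over 20-23 h. With a mean log2 difference of -0.01, the TSC at 8822442 changed sign with the setting and took values between -0.77 and 0.95. Genes in such a block may be similar in sequence, and whether reads were shared between copies was not tested.

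The highest promoter outside this block, at 18622701-18623082 on the plus strand of scaffold 4845, was at its later level before the 20-23 h window began. It had 39156, 42099 and 42579 RPM over 20-23 h, against 8482, 20415 and 39923 RPM over 17-20 h. The 19-20 h value lay among those of the later window, and the log2 difference of 1.12 ± 0.67 (SE) did not pass the test (limma, adjusted p = 0.52).

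The hours were compared with one another before the windows were. After thinning the libraries to an equal 1348239 reads, the TSC levels at 19-20 h had a Spearman's rho of 0.88 with 20-21 h, 0.88 with 21-22 h and 0.83 with 22-23 h, against 0.83 with 18-19 h and 0.74 with 17-18 h. These values run across TSCs, which are not independent, and are given as a description. On the log2 scale, 5561 of the 8338 tested TSCs (66.7%) were closer at 19-20 h to their mean over 20-23 h than to their mean over 17-19 h. The later mean covers more hours than the earlier one, and the share makes no allowance for this. The median size of the change between neighboring hours, relative to the median change and over 3981 TSCs with a mean of at least 30 reads after thinning, was 0.47 (log2) between 17-18 and 18-19 h and 0.50 between 18-19 and 19-20 h. It was 0.35 across the boundary of the windows, between 19-20 and 20-21 h, 0.31 between 20-21 and 21-22 h and 0.52 between 21-22 and 22-23 h. The boundary at 20 h thus did not coincide with the larger changes, which lay before 19-20 h and after 21-22 h.

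**Figure D2:**
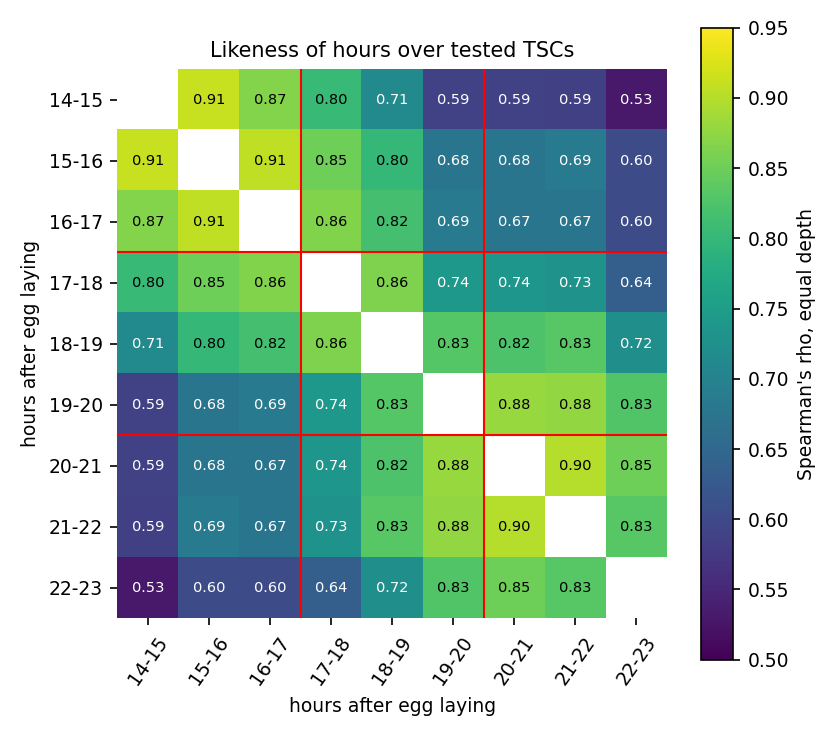
Spearman's rho between hourly libraries over the 8338 tested TSCs, after thinning to equal depth; red lines separate 14-17, 17-20 and 20-23 h, and both axes run from 14-15 h to 22-23 h. The 19-20 h library has a rho of 0.88 with 20-21 and 21-22 h and of 0.74 with 17-18 h, and 22-23 h stands apart from the other hours of its window with 0.85 and 0.83.

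The difference between the window means passed the test for no TSC and no gene. On log2(RPM + 1), limma called 0 of 8338 TSCs (0%) and 0 of 6229 genes (0%) at a Benjamini-Hochberg adjusted p under 0.05. At an unadjusted p under 0.05 there were 1044 TSCs and 745 genes, and edgeR's quasi-likelihood test on the recovered reads likewise called 0. DESeq2 called 213 TSCs (80 higher at 20-23 h, 133 lower) and 161 genes (53 higher, 108 lower). Counted without a test, all 3 hours of 20-23 h lay above all 3 of 17-20 h for 612 TSCs (7.34%) and 410 genes (6.58%), and below them for 835 TSCs (10%) and 660 genes (10.6%). The fitted log2 difference was at least 1 for 705 TSCs and at most -1 for 759. With the 40 highest TSCs left out of the total, 662 TSCs lay entirely above and 786 entirely below, and the tests again called 0 TSCs and 0 genes. The median log2 difference of all TSCs was -0.13 by library total, -0.03 with the 40 highest left out and 0.01 with TMM factors, so differences by library total are to be read against that shift. Without the 19-20 h library, 492 TSCs (257 higher at 20-23 h, 235 lower) and 358 genes (169 higher, 189 lower) passed. No other single hour left out gave a call.

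The largest differences in absolute amount belonged to the most abundant promoters. Among the 10 TSCs with the largest gain in mean RPM, all were among the 40 highest, the gain ran from 4249 to 18338 RPM, and in only 2 did the windows not overlap. The first of these, at 20999684-20999925 on the plus strand of scaffold 4845, had 9578, 9503 and 15483 RPM at 20-21, 21-22 and 22-23 h, against 1576, 3624 and 7898 RPM at 17-18, 18-19 and 19-20 h. Its level was higher in every hour of the later window, and it was still highest in the last hour. The other, a narrow promoter of 29 bp at 8727797-8727825 on the plus strand of scaffold 4784, had 7614, 5118 and 5762 RPM over 20-23 h, against 379, 762 and 4606 RPM over 17-20 h. It had already gained most of its level by 19-20 h. The window differences of the 10 had adjusted p-values between 0.29 and 1.00 (limma).

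The 10 TSCs with the largest loss in mean RPM differed by 1953 to 19047 RPM, and 5 of them were among the 40 highest. At 17530105-17530218 on the minus strand of scaffold 4845, the promoter had 1029, 1899 and 167 RPM over 20-23 h, against 40089, 18567 and 1579 RPM over 17-20 h. At 2184876-2184996 on the minus strand of scaffold 4770, it had 2728, 1542 and 394 RPM over 20-23 h, against 47565, 8292 and 2906 RPM over 17-20 h. In both, the largest part of the fall was complete by 19-20 h, and the windows overlapped for the first but not for the second. The TSC at 3264410-3264583 on the plus strand of scaffold 4845 was a brief peak: it had 2967, 3296 and 814 RPM over 20-23 h, against 19044, 18570 and 2071 RPM over 17-20 h, after 320, 445 and 1108 RPM at 14-15, 15-16 and 16-17 h. Of the 10, the windows did not overlap in 3, and the adjusted p-values lay between 0.27 and 0.87 (limma).

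Because the changes were spread over the hours rather than stepped at 20 h, a straight line through the start hour of the same 6 libraries, one of the alternatives listed with the design, was fitted to log2(RPM + 1). It called 679 TSCs, 338 higher with the hour (4.05%) and 341 lower (4.09%), and 455 genes, 198 higher (3.18%) and 257 lower (4.13%; limma, adjusted p under 0.05). Some of the 338 met the minimum of reads only through the hours of 20-23 h, and their calls are no independent support. The calls rest on the ends of the interval. Without 17-18 h, 47 TSCs and 2 genes passed; without 22-23 h, 134 TSCs and 7 genes; and without 18-19 h, 356 TSCs and 252 genes. With the 40 highest TSCs left out of the total, 590 TSCs passed, 347 higher and 243 lower, of which 560 were among the 679. DESeq2 gave 919 TSCs, 563 higher and 356 lower. Among genes the balance of directions turned with the scaling, from 43.5% higher by library total to 54.95% with TMM factors (200 higher, 164 lower). The gene with the smaller adjusted p of the pair that rose most steeply, FBgn0038160, had 203, 205 and 1230 RPM over 20-23 h, against 10.1, 28.9 and 54.4 RPM over 17-20 h (slope 1.26 ± 0.11 log2 units per hour, SE, limma adjusted p = 0.0018). Of the pair that fell most steeply, FBgn0037424 had 17.2, 12.2 and 2.92 RPM over 20-23 h, against 607, 159 and 22.2 RPM over 17-20 h (slope -1.36 ± 0.15, SE, limma adjusted p = 0.0038).

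**Figure D3:**
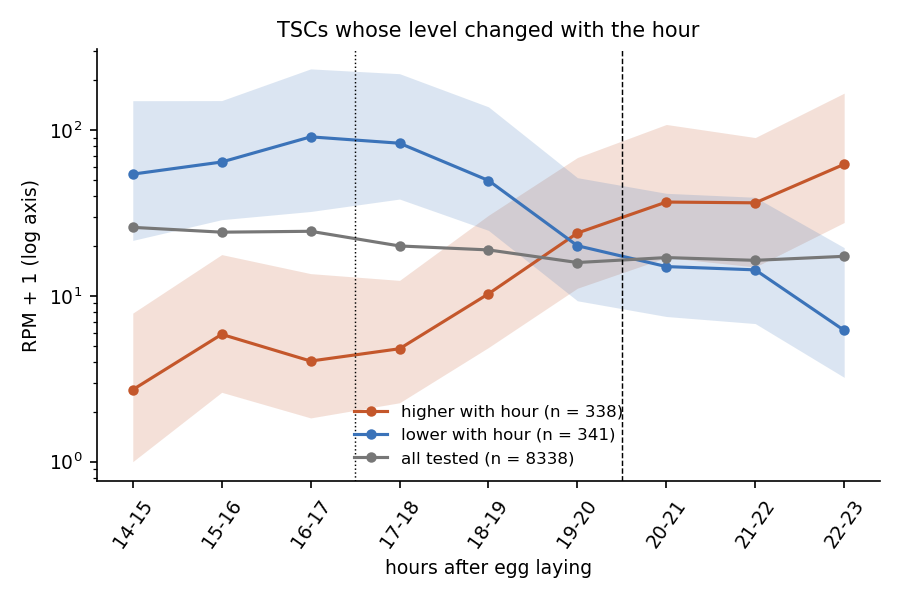
Median level (lines and points) and quartiles (shading) in RPM + 1 on a log axis, by hour after egg laying, for TSCs whose slope over 17-23 h was called higher with the hour (n = 338) or lower with the hour (n = 341), and the median of all tested TSCs (n = 8338); the dotted and dashed lines mark 17 h and 20 h. Rising TSCs have medians of 61.2 RPM at 22-23 h and 3.80 RPM at 17-18 h, falling TSCs of 5.19 RPM at 22-23 h and 82.3 RPM at 17-18 h. The hours of 17-23 h chose these TSCs, so their course there is a description.

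Most promoters called as rising came up from low levels. The 338 rising TSCs had median levels of 3.80, 9.29, 22.9, 35.8, 35.4 and 61.2 RPM from 17-18 h to 22-23 h. Their upper quartile at 17-18 h was 11.4 RPM. Low first hours and a peak in the last hour are in part set by the choice of these TSCs by slope. Some started higher, such as that at 20999684-20999925 on scaffold 4845, with 1576 RPM at 17-18 h (slope, limma adjusted p = 0.024). Of the 15 steepest with non-overlapping windows, a mean of at least 20 RPM in the higher window and the same direction without the 40 highest TSCs, 14 were highest at 22-23 h and 14 were assigned to a gene. At 5197117-5197140 on the plus strand of scaffold 4820, the promoter had 632, 539 and 828 RPM at 20-21, 21-22 and 22-23 h, against 11.4, 30.6 and 107 RPM at 17-18, 18-19 and 19-20 h. Its slope was 1.29 ± 0.15 log2 units per hour (SE, limma adjusted p = 0.0035), and its gain was steepest just after 20 h. At 12202027-12202041 on the plus strand of scaffold 4770, levels were 207, 210 and 1250 RPM over 20-23 h, against 10.1, 29.4 and 55.4 RPM over 17-20 h. Here the last hour exceeded both earlier ones of its window by a wide margin, and the slope was 1.27 ± 0.11 (SE, adjusted p = 0.0024).

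Other rising promoters had gained part of their level by 19-20 h. The TSC at 17499043-17499059 on the minus strand of scaffold 4845 had 129, 88.8 and 231 RPM over 20-23 h, against 2.53, 1.20 and 67.3 RPM over 17-20 h (slope 1.35 ± 0.24, SE, adjusted p = 0.011). The values at 17-18 and 18-19 h rest on 4 and 11 reads. At 16126207-16126243 on the plus strand of scaffold 4770, 705, 614 and 1038 RPM were measured over 20-23 h, against 13.9, 45.4 and 332 RPM over 17-20 h. A promoter that the authors assigned to no gene, at 19290030-19290048 on the minus strand of scaffold 4784, had 31.0, 26.1 and 73.4 RPM over 20-23 h, against 0, 3.17 and 6.55 RPM over 17-20 h. The 0 at 17-18 h allows up to 1.90 RPM. Across the 15, slopes ran from 1.07 to 1.35 log2 units per hour with adjusted p-values between 0.0024 and 0.019 (limma). Window differences ran from 2.97 to 4.24 on the log2 scale with adjusted p-values between 0.12 and 0.33 (limma), so none passed as a difference of windows. Among the 15, the TSC at 18255351-18255406 on scaffold 4690 had 39, 53 and 43 reads over 20-23 h, against 0, 3 and 2 reads over 17-20 h. It met the minimum of reads only through the hours of 20-23 h, so its p-values are no independent support. Over 14 alternative fits, 8 of the 15 were called in each.

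The promoters that fell had mostly been built up before or at the start of the interval. The 341 falling TSCs had medians of 53.2, 63.2 and 90.0 RPM over the hours of 14-17 h, and of 82.3, 48.6, 19.1, 14.0, 13.4 and 5.19 RPM from 17-18 h to 22-23 h. Their highest hour of the series fell at 14-17 h for 128 (37.5%) and at 17-18 h for 73 (21.4%), against 12.0% and 3.67% of all tested TSCs. The highest hour came before 14 h for 112 of the 341, against 5138 of 8338 tested TSCs. These shares are in part set by the slope, which leaves little room for a later peak. At 3839777-3839808 on the plus strand of scaffold 4784, the promoter had 72.1, 4.35 and 27.4 RPM at 20-21, 21-22 and 22-23 h, against 1344, 985 and 136 RPM at 17-18, 18-19 and 19-20 h. It had the steepest fall, with a slope of -1.47 ± 0.24 log2 units per hour (SE, limma adjusted p = 0.0092), but its level was not lowest in the last hour. At 10973562-10973762 on the plus strand of the same scaffold, levels were 120, 84.5 and 33.4 RPM over 20-23 h, against 2036, 1846 and 225 RPM over 17-20 h, and 52.4 RPM at 14-15 h. This promoter was thus high for about the 3 hours from 16-17 h to 18-19 h, when it had 1081, 2036 and 1846 RPM.

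A different course was seen at 609511-609638 on the minus strand of scaffold 4644, whose fall had begun before 17 h. It had 9.51, 13.4 and 2.23 RPM over 20-23 h, against 282, 52.8 and 20.8 RPM over 17-20 h, and 3298, 1417 and 527 RPM over 14-17 h. Some falling promoters were nearly silent at the end. At 12565728-12565758 on the minus strand of scaffold 4690, 6, 17 and 1 reads remained over 20-23 h, against 195, 257 and 9 reads over 17-20 h. The 15 steepest falls had slopes between -1.47 and -1.10 and window differences between -4.67 and -3.04 on the log2 scale, with window adjusted p-values between 0.25 and 0.29. In 14 of them the lowest hour was 22-23 h, which is in part set by the slope. Of the 15, 6 were called in each of the alternative fits.

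**Figure D4:**
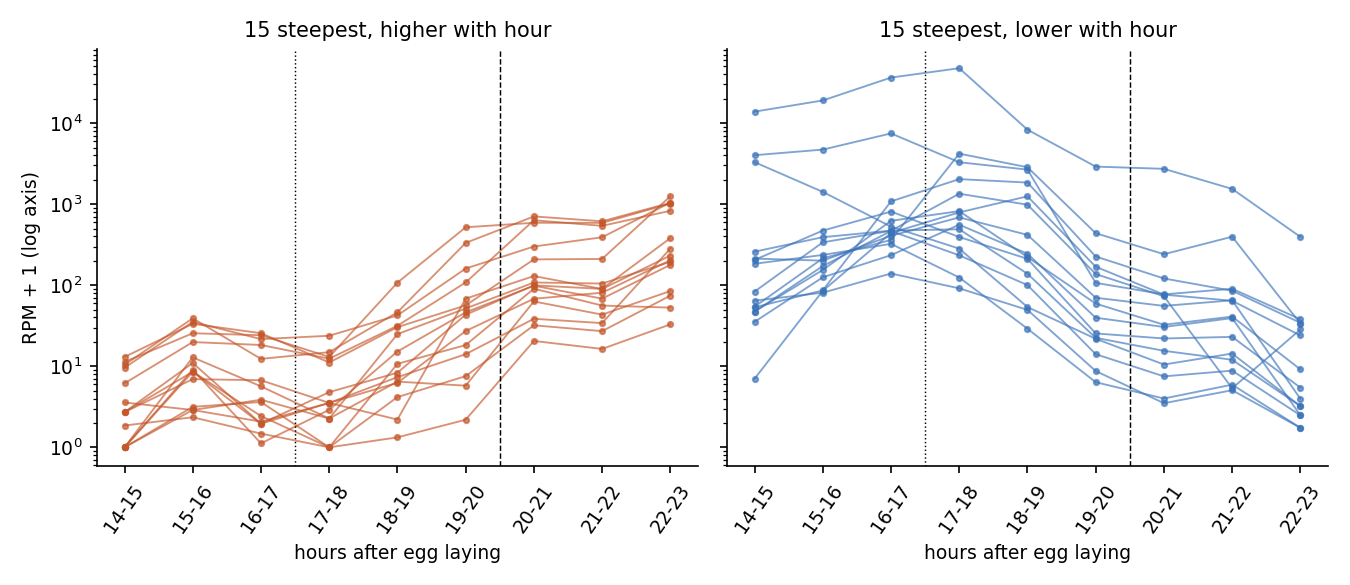
RPM + 1 on a log axis by hour after egg laying for the 15 steepest TSCs called higher with the hour (left) and lower with the hour (right); each line is 1 TSC, each point 1 library, and the dotted and dashed lines mark 17 h and 20 h. All 15 on the left are above their 17-20 h values in every hour of 20-23 h, and all 15 on the right are below; the TSCs were chosen for this.

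Among TSCs called by slope, the changes were seldom largest at the boundary of the windows. Among rising TSCs, the largest hourly gain lay between 17-18 and 18-19 h for 126, between 18-19 and 19-20 h for 126, between 19-20 and 20-21 h for 28, between 20-21 and 21-22 h for 0 and between 21-22 and 22-23 h for 58. Among falling TSCs, the largest drop lay in the same intervals for 43, 145, 17, 26 and 110. Only 8.28% of the rising and 4.99% of the falling TSCs thus made their largest step across the boundary of the windows. A straight line favors steady courses. TSCs whose windows were apart, without that requirement, had their largest step at the boundary more often than in any other interval. This was so in 191 of 612 (31.2%) of those higher and 290 of 835 (34.7%) of those lower at 20-23 h. Since these were chosen for a gap between 19-20 h and the later hours, that share is partly set by the choice.

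Features that the slope did not use were tabulated for the same promoters. Rising promoters were narrow, with a median width of 24 bp (quartiles 14.3 and 56 bp), against 76 bp (35 and 133 bp) for falling and 96 bp (53 and 132 bp) for all tested TSCs. Width grows with the number of reads in which a cluster was called, and rising TSCs had a median of 731 reads over the series, against 4375 for falling and 2664 for all tested TSCs. The difference in width was also present among TSCs of like depth. With 1000 to 5000 reads, the median was 30 bp for 94 rising, 63 bp for 148 falling and 92 bp for 3385 tested TSCs. With 5000 to 25000 reads it was 84 bp for 42 rising, 96 bp for 113 falling and 116 bp for 2171 tested TSCs. These medians are a description, without a test.

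Earlier activity was lower in the rising promoters, the more so in weak ones. Over 6-14 h without 7-8 h, 121 of the 338 (35.8%) averaged under 1 RPM, against 11 of 341 falling (3.23%) and 699 of 8338 tested TSCs (8.38%). Among those with a mean of at least 20 RPM over the 6 libraries it was 30 of 208 rising (14.4%), 3 of 216 falling (1.39%) and 72 of 3854 tested TSCs (1.87%). In 271 (80.2%) the highest hour of the series, leaving out 4-6 h and the shallow 7-8 h library, was 22-23 h, against 862 of all tested TSCs (10.3%). That share is in part set by the slope. At 0-2 h, 155 of the rising (45.9%), 272 of the falling (79.8%) and 6472 of all tested TSCs (77.6%) averaged at least 1 RPM. With a mean of at least 20 RPM, 134 of 208 rising, 200 of 216 falling and 3430 of 3854 tested TSCs did. Levels of the rising TSCs were not smooth before 17 h. Their median was 1.72, 4.86 and 3.04 RPM at 14-15, 15-16 and 16-17 h, and 171 (50.6%) were higher at 15-16 h than at both neighboring hours, against 54 falling (15.8%) and 1779 of all tested TSCs (21.3%). No gene was assigned to 17.2% of rising, 20.5% of falling and 18.8% of all tested TSCs. Among those with a mean of at least 20 RPM, the shares were 7.69% of 208 rising, 16.2% of 216 falling and 12.7% of 3854 tested TSCs.

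Rising promoters often lay near one another. Of the 269 rising TSCs with another tested TSC of a different gene, or of no gene, within 10000 bp, 105 (39.0%) had a rising one there, against 606 of 6847 for all tested TSCs (8.85%). For falling TSCs, 39 of 227 (17.2%) had a falling neighbor, against 545 of 6847 (7.96%). Runs of at least 3 promoters of different genes, or of no gene, numbered 9 for rising and 1 for falling TSCs. No matching count was made for other sets of TSCs. Each run begins and ends at a called TSC, so the share called within it is in part set by how it was drawn.

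In the longest rising run, all 5 tested TSCs between 14734071 and 14750494 on scaffold 4929 were called, 4 of them with a gene each. Their summed level was 316, 363 and 1096 RPM at 20-21, 21-22 and 22-23 h, against 26.0, 89.5 and 204 RPM at 17-18, 18-19 and 19-20 h. Most of it came from the TSC at 14742440-14742469, with 229, 231 and 752 RPM over 20-23 h, against 21.5, 51.7 and 141 RPM over 17-20 h. Widths in the run were between 6 and 30 bp. A run on scaffold 4690 between 7450874 and 7466991 held 4 rising of 5 tested TSCs, with a sum of 130, 134 and 280 RPM over 20-23 h, against 10.8, 27.1 and 105 RPM over 17-20 h. Another on scaffold 4845, between 8159099 and 8172587, held 4 rising of 6 tested TSCs, all on the minus strand, with 396, 306 and 612 RPM over 20-23 h, against 46.2, 80.1 and 152 RPM over 17-20 h. A run of 3 on scaffold 4770, between 12193527 and 12202041, held 2 of the 15 steepest TSCs and summed to 694, 788 and 2620 RPM over 20-23 h, against 93.1, 186 and 378 RPM over 17-20 h.

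The falling run lay on the minus strand of scaffold 4784, between 18517831 and 18526721, where all 4 tested TSCs, of 4 genes, were called. It summed to 761, 903 and 290 RPM over 20-23 h, against 7905, 5111 and 833 RPM over 17-20 h, after 259, 987 and 3299 RPM over 14-17 h. About 10 kb away on the opposite strand lay a pair of the 40 highest TSCs with another course. The TSC at 18507524-18507774 had 5827, 2003 and 3030 RPM over 20-23 h, against 1021, 4169 and 3725 RPM over 17-20 h. Its windows overlapped, and it was highest at 20-21 h, whereas the falling run was highest at 17-18 h among these hours.

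The last hour stood out within the later window. Of 457 TSCs with at least 200 RPM at both 20-21 and 21-22 h, 37 were more than 4 times lower at 22-23 h than in the lower of these hours, 10 of them more than 8 times, while 1 was over 4 times above the higher. The same count against both hours before gave 48 and 17 of 490 TSCs at 19-20 h, 0 and 0 of 403 at 20-21 h and 8 and 3 of 441 at 21-22 h, so losses of this size were most frequent at 19-20 h and 22-23 h. These are single libraries, and no test applies.

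The losses at 22-23 h followed different courses, and the first given here came after nearly level values. At 10511163-10511266 on the minus strand of scaffold 4929, levels were 1192, 1152 and 132 RPM over 20-23 h, against 1244, 1114 and 1026 RPM over 17-20 h, so the loss was confined to the last of these 6 hours. The 178 reads at 22-23 h give a 95% Wilson interval of 114 to 153 RPM. At 19837404-19837681 on the plus strand of scaffold 4845, levels were 6255, 4522 and 276 RPM over 20-23 h, against 3352, 2477 and 3181 RPM over 17-20 h. At 18505568-18505817 on the plus strand of scaffold 4784, they were 4886, 5474 and 177 RPM (95% interval 156 to 201 RPM) over 20-23 h, against 1153, 3068 and 4089 RPM over 17-20 h. A further high promoter, at 10885550-10885574 on the same strand, had 6622, 4061 and 448 RPM over 20-23 h, against 3124, 6136 and 3634 RPM over 17-20 h. None of the 10 was called by slope, and their window differences had adjusted p-values between 0.36 and 0.89 (limma).

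Gains were counted in the same hour. Of 551 TSCs with at least 200 RPM at 22-23 h, 18 were more than 2 times above every one of the 5 hours before. This cut is lower than that for losses, and no matching count was made for other hours. Among TSCs with at least 200 RPM in both hours before, gains of over 4 times numbered 1 at 22-23 h. They numbered 0 at 21-22 h, 0 at 20-21 h and 1 at 19-20 h. The sharpest of the 18, at 21702033-21702048 on the minus strand of scaffold 4845, had 37.6, 33.1 and 282 RPM over 20-23 h, against 2.53, 6.34 and 13.1 RPM over 17-20 h. Its 380 reads at 22-23 h give an interval of 255 to 312 RPM. The TSC at 7815333-7815426 on the plus strand of the same scaffold had 147, 105 and 386 RPM over 20-23 h, against 90.6, 69.2 and 139 RPM over 17-20 h, but had reached 708 RPM in an earlier hour, before 14 h. The 22-23 h library was the shallowest of the 6, and no second library of that hour was analysed here.

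Within genes that use a pair of promoters, the balance between them can be compared free of library scaling. For 388 genes with at least 20 reads of both TSCs together in each library and a second TSC with at least 10% of the reads, the log2 ratio of second to main TSC was tested. The balance differed between the windows for 1 gene (0.258%; limma, adjusted p under 0.05), and 50 genes had an unadjusted p under 0.05. By slope over the hours 35 genes passed (9.02%), with the second TSC gaining in 14 and losing in 21. That 1 gene lies on the minus strand of scaffold 4690, its main TSC at 18259862-18259988 and the second, 4456 bp downstream, at 18255351-18255406. The second TSC had 39 of 148, 53 of 234 and 43 of 133 reads at 20-21, 21-22 and 22-23 h, or 26.4%, 22.6% and 32.3%. In the hours of 17-20 h it had 0 of 50, 3 of 264 and 2 of 84 reads, or 0%, 1.14% and 2.38%. The 95% Wilson intervals of the windows were apart, with a lowest bound of 17.8% over 20-23 h and a highest of 8.27% over 17-20 h. The log2 ratio differed by 4.55 ± 0.54 (SE, limma adjusted p = 0.0068). The second TSC met the minimum of 10% of the reads only through the hours of 20-23 h, so the pair entered the test because it was high there, and this p is no independent support. The 0 of 50 reads allows a share of up to 7.13% by that interval. The gene did not pass without 18-19 h, when no gene was called, and was outside the test when the second TSC had to hold at least 20% of the reads.

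**Figure D5:**
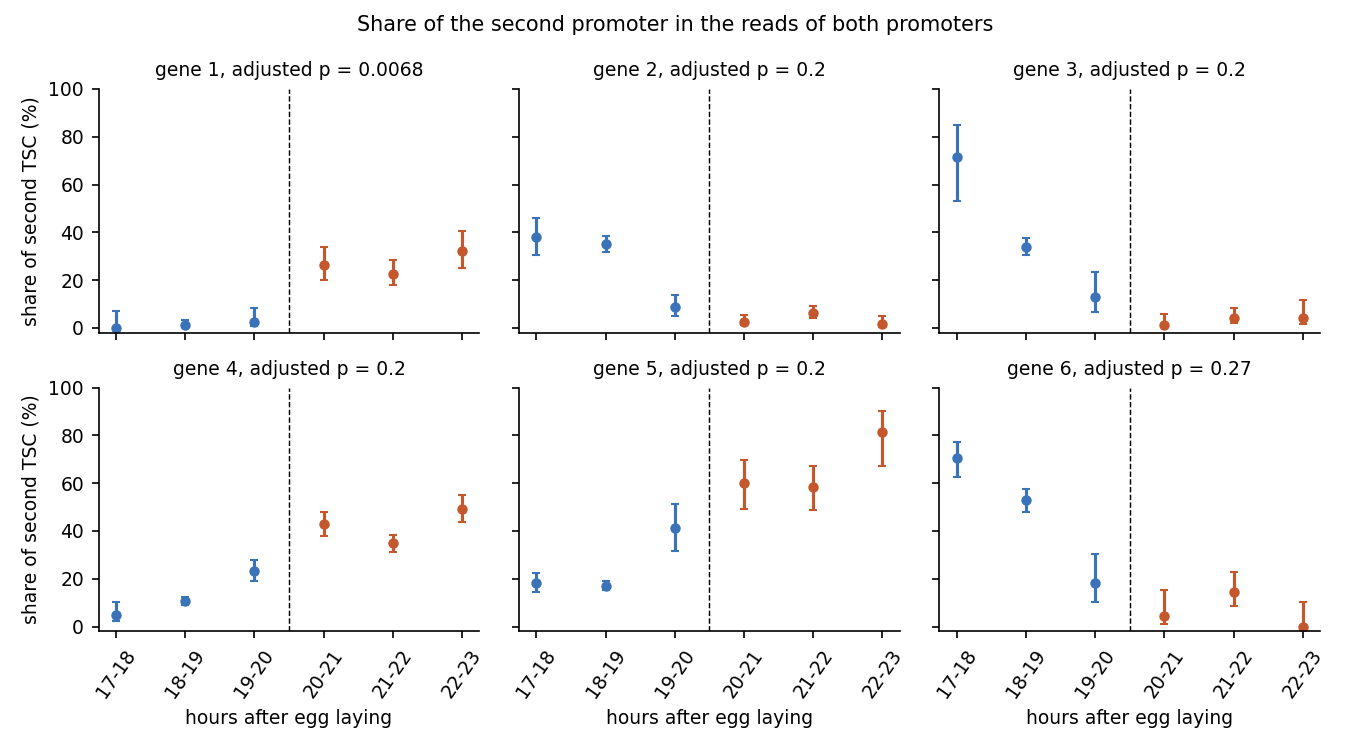
Share (%) of the second TSC in the reads of both TSCs, with 95% Wilson intervals, by hour after egg laying for the 6 genes with the smallest adjusted p in the window test (20-23 h in orange, 17-20 h in blue; the dashed line marks 20 h). In gene 1 the second TSC has at least 22.6% in each hour of 20-23 h and at most 2.38% in each hour of 17-20 h. The windows are apart in all 6 genes, which is in part set by their choice by this test, and 1 passed it.

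The next 5 genes had windows that did not overlap but adjusted p-values between 0.20 and 0.27, and in each the 19-20 h library was intermediate. They were chosen by the smallest p of this test, so windows that do not overlap are in part set by the choice. On the minus strand of scaffold 4770, the second TSC at 626162-626423 had 51 of 85, 62 of 106 and 35 of 43 reads over 20-23 h, against 64 of 352, 234 of 1363 and 39 of 95 reads over 17-20 h, and so overtook the main TSC at 623932-623991. On the plus strand of scaffold 4784, the second TSC at 3056088-3056230 had 4.55%, 14.4% and 0% over 20-23 h, against 70.4%, 52.8% and 18.2% over 17-20 h, relative to the main TSC at 3052965-3053072. The 0% is 0 of 33 reads, with an upper bound of 10.4%. On the plus strand of scaffold 4929, the second TSC at 17236868-17236896 had 42.9%, 34.9% and 49.3% over 20-23 h, against 4.80%, 10.5% and 23.2% over 17-20 h. All of these passed by slope (limma, adjusted p-values between 0.010 and 0.037). Where the second TSC lost share, it met the minimum of 10% of the reads only through the hours of 17-20 h. Such a pair entered the test because that TSC was high there, and its p is no independent support. How many of the genes called by slope entered in this way was not counted.

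No tested promoter was confined to one window by its reads. None had 0 reads throughout 20-23 h or throughout 17-20 h, but 7 had at most 10 reads in the 3 libraries of 20-23 h together and 9 at most 10 in those of 17-20 h. Among the 9, the TSC at 18672700-18672707 on the minus strand of scaffold 4845 had 27, 37 and 25 reads over 20-23 h, against 1, 4 and 4 reads over 17-20 h. It passed the minimum of reads only through the hours of 20-23 h, so its slope is not given as a test. Among the 7, the TSC at 10371711-10371820 on the plus strand of scaffold 4820 had 1, 7 and 0 reads over 20-23 h, against 10, 56 and 11 reads over 17-20 h, and it passed that minimum only through the earlier hours. Of the promoters without a gene, 58 of 1568 rose (3.70%) and 70 fell (4.46%) by slope, against 280 (4.14%) and 271 (4.00%) of 6770 with a gene, and their median window difference was -0.13 on the log2 scale, as it was for those with a gene.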

How the data were processed

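Per the study's methods, embryos were collected over 1 h windows and aged, RNA with a 5′ monophosphate was digested, and samples were barcoded at reverse transcription, pooled, enriched for capped 5′ ends and sequenced on 1 lane, so no sequencing batch separates the windows. The authors mapped reads with STAR to release 1.3 of the *D. erecta* genome, called TSCs on the pooled reads of all hours (so width and position are not specific to an hour) and removed rDNA clusters. The deposited gene and TSC tables hold RPM. Every value above 0 was a whole multiple of 1 read within 0.01 (185320 gene and 379172 TSC values, 100%), and whole reads were recovered from it. TSC RPM sum to 1000000 in each library, and in the 6 libraries compared the gene table holds 60.3% to 74.3% of its total. Positions come from the deposited BED list (start and end columns, another unit). The deposited table of aligned profiles was not used.

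The TSC table lists 161 positions for several genes, 169 repeats in all, and these were counted once. Features with at least 10 reads in at least 3 of the 6 libraries were tested on log2(RPM + 1) with limma 3.58.1 (trend option, R 4.3.3), 3 hours against 3, with Benjamini-Hochberg adjustment over all features; differences on this scale understate the change of low TSCs. Slopes used the start hour. DESeq2 1.42.0 and edgeR 4.0.16 on recovered reads, TMM factors, pseudocounts of 0.1 and 5, no filter, thinning and leaving out each hour were alternatives. Scripts were tested on simulated data. Intervals are 95% Wilson intervals and cover counting error only.

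The windows and all choices were made with earlier results of these data known. Named TSCs are the 10 with the largest gain and loss in mean RPM, and the 6 genes with the smallest adjusted p for promoter balance. As no feature passed the window test, the 15 steepest slopes each way, the runs of neighbors and the last-hour cases were chosen after their values were seen. Gene lists by symbol were planned, but 0 of 17573 identifiers matched a symbol, so none was counted.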

Additional observations from a re-analysis of the deposited data

How the results depend on the processing

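For the difference between windows, 0 genes and 0 TSCs were called under every alternative listed with the design except 3. DESeq2 called 161 genes and 213 TSCs, the straight line through the start hour 455 genes and 679 TSCs, and leaving out 1 hour gave 0 to 358 genes and 0 to 492 TSCs, the highest without 19-20 h; the cause was not tested. Counts by slope, whose alternatives were chosen after seeing the data, were 258 genes and 392 TSCs with edgeR and TMM factors, 128 genes and 125 TSCs at an adjusted p under 0.01, and 2 to 647 genes and 47 to 877 TSCs with 1 hour left out. The promoter balance test called 0 genes with a second TSC of at least 20%, 35 by slope and 0 to 14 with 1 hour left out, the highest without 19-20 h. Of the 20 TSCs with the largest differences in RPM, 3 changed sign, all in the block on scaffold 4784. The TSC at 8822442 (log2 difference -0.01) was at 0.10 with the 40 highest left out, 0.14 with TMM factors, 0.39 and 0.41 with edgeR, 0.42 with DESeq2, 0.88 by slope over 3 h and -0.77 to 0.95 with 1 hour left out. The TSC at 8824985 (0.21) ranged from -0.16 to 0.56, and that at 8826975 (-0.54) from -1.36 to 0.42, with 1 hour left out. No paired analysis was possible because the hours of the windows carry no shared replicate numbers in the labels. Depth limits the values at 22-23 h, 17-18 h and 19-20 h, where 1 read is worth 0.742, 0.633 and 0.596 RPM.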
